A study of Mus musculus with 23 samples.

Results

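The heart calcium handling genes were 10 genes chosen by symbol: Ryr2, Atp2a2, Pln, Sln, Casq2, Casq1, Slc8a1, Cacna1c, Hrc and Trdn. On the bead array used they carried 16 of the 24048 probes, and they were 10 of the 14776 genes that the platform annotation names. Cacna1c had 5 probes, Atp2a2 and Casq1 had 2 probes each, and each of the other genes had 1. All probes of each gene were followed in every array, whatever their level.

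The arrays held total RNA from 12-week-old male BALB/c mice on a normal diet. The OPP mice drank oil palm phenolics (OPP), a water-soluble phenolic extract of the oil palm fruit, over 6 weeks at 1500 ppm (as gallic acid equivalents), and the control mice drank distilled water. There were 4 OPP and 4 control hearts, 3 OPP and 4 control livers, and 4 OPP and 4 control spleens, so 23 arrays in all. Hearts were excised, and the methods do not say whether the whole heart gave the RNA. OPP and control mice were housed in separate cages, so cage and OPP cannot be told apart. The labels do not tell which organs came from 1 mouse. The RNA samples of highest integrity had been chosen for hybridisation and outlying samples removed by the authors. In bulk RNA, fewer cells of a type and less RNA per cell cannot be told apart.

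In a heartbeat, calcium enters the heart muscle cell through the L-type channel and opens the ryanodine receptor, which lets a larger amount out of the sarcoplasmic reticulum. The released calcium binds the myofilaments, and relaxation follows when the calcium pump of the reticulum takes most of it back and the sodium-calcium exchanger carries the rest out of the cell. Phospholamban and sarcolipin are small membrane proteins that hold back the pump, while calsequestrin, triadin and the histidine-rich calcium-binding protein store calcium at the release site or tether the store to the release channel.

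The stretch just upstream of the gene start is shown for 4 members, as the piece of the gene in which promoter motifs could be read. These members were bright in heart, dim in at least 1 of the other organs and held a motif match. Cacna1c was also bright in heart and dim in both other organs, but its starts held no match and are not shown. RefSeq (GRCm38.p6) start sites were at hand for 7 of the 10 genes (9 starts). Each run gives the 250 bases before the start, on the strand of the gene, with matches to any of 6 motifs in capitals: the MEF2 motif, the CArG box, the GATA motif AGATAA, the M-CAT motif CATTCC, the E-box CAGCTG and the TATA motif TATAAA, each read on both strands. In Casq2 (chr3:102086165-102086414, plus strand) the capitals mark a MEF2 motif. In Pln (chr10:53337436-53337685, plus strand) they mark the TATA motif and then the GATA motif read on the other strand. They mark an E-box in Hrc (chr7:45335019-45335268, plus strand) and a GATA motif in Slc8a1 (chr17:81738388-81738637, minus strand).
Casq2: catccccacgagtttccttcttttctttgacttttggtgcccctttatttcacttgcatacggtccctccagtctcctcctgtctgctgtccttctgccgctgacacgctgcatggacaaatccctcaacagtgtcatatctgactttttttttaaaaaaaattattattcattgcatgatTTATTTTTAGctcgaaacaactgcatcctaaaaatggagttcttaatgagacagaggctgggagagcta
Pln: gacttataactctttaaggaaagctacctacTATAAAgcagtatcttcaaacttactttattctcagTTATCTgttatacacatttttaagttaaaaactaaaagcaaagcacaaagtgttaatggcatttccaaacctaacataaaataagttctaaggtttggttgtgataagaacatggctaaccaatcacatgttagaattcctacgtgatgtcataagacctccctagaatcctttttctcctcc
Hrc: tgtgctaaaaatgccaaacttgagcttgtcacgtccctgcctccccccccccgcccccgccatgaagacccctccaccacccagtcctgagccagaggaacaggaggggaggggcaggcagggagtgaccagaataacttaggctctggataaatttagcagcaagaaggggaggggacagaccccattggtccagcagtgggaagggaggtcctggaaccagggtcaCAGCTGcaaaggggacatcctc
Slc8a1: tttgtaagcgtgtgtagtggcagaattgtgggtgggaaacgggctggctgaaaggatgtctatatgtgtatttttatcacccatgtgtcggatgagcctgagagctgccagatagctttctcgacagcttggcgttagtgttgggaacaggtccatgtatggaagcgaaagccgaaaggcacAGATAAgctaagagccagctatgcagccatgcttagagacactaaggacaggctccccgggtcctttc

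Of 32851 upstream stretches of this length, 2.92% held the MEF2 motif, 9.99% the GATA motif, 13% the E-box and 12.4% the TATA motif. The MEF2 motif stood in 1 of the 9 member stretches (Casq2), the GATA motif in 2 (Pln and Slc8a1), the E-box in 2 (Casq1 and Hrc) and the TATA motif in 1 (Pln). The M-CAT motif and the CArG box stood in 0 of the 9, against 12.6% and 1.47% of all stretches. The stretches also differed in base composition. GC content was 32.8% in Pln, 41.6% in Casq2, 50.4% in Slc8a1 and 59.6% in Hrc. It ran from 32.8% to 82.8% over the 9 member stretches, against a median of 52.4% over all stretches. A match of letters is a description of the stretch only.

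The heart label was checked against marker genes. All 6 cardiomyocyte marker genes on the array were detected on all 8 heart arrays, and 0 of the 6 were detected on every liver or every spleen array. The number of probes detected was 9023 to 9475 in OPP hearts and 9022 to 9785 in control hearts. Array background, the mean signal of the negative beads as estimated from the detection p-values, was 50.6 to 55.3 in OPP hearts and 57.8 to 62.4 in control hearts. Every OPP heart array was thus dimmer at the bottom than every control heart array, and the part of this in the results was not tested. Quantile normalised values were therefore set beside values scaled another way wherever a result changed. The atrial light chain gene Myl7 read 9560, 11900, 2530 and 2710 units of normalised intensity in OPP hearts 1 to 4, against 10900, 9350, 11600 and 11000 units in control hearts 1 to 4. Myl4, the other atrial light chain gene, read 17500, 16900, 7180 and 4720 units in OPP hearts, against 16600, 15900, 17500 and 18100 units in control hearts. OPP hearts 3 and 4 thus stood apart in both atrial genes, while the ventricular marker sum ran from 28800 to 30300 units in OPP hearts and from 28800 to 29900 units in control hearts.

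**Figure D1:**
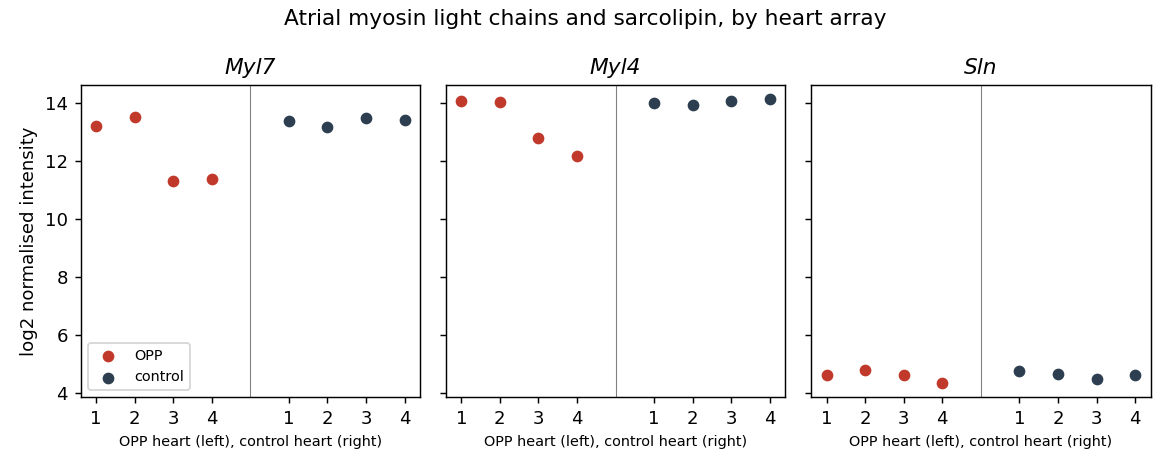
Normalised intensity (log2) of the atrial light chain genes Myl7 and Myl4 and of Sln on each heart array, with OPP hearts 1 to 4 left and control hearts 1 to 4 right. OPP hearts 3 and 4 lie below the other 6 hearts for Myl7 and Myl4, and the Sln probe was detected in 0 of the 8 hearts.

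In hearts, no calcium handling gene was called changed by OPP. Of the 16 probes, 9 probes of 8 genes passed detection, which asked for a detection p below 0.01 in 3 or more hearts of either group, and 7 probes did not. Of these 9, 0 had an adjusted p under 0.05 and 0 had an unadjusted p under 0.01 in the limma fit, where 4.61% of the 9172 probes tested had an unadjusted p under 0.01 and 0 had an adjusted p under 0.05. At an unadjusted p under 0.05 the member count was also 0, beside 14.1% of all probes. The OPP and control arrays overlapped for all 9 probes, whereas 7.97% of all probes tested had groups that did not overlap. The log2 change was above 0 for 5 probes and below 0 for 4, with a median of 0.07 beside 0.00 over all probes tested. The changes ran from -0.18 to 0.31 on the log2 scale and the adjusted p from 0.368 to 0.773. The smallest p an exact permutation test of 4 against 4 arrays can give is 0.0286.

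**Figure D2:**
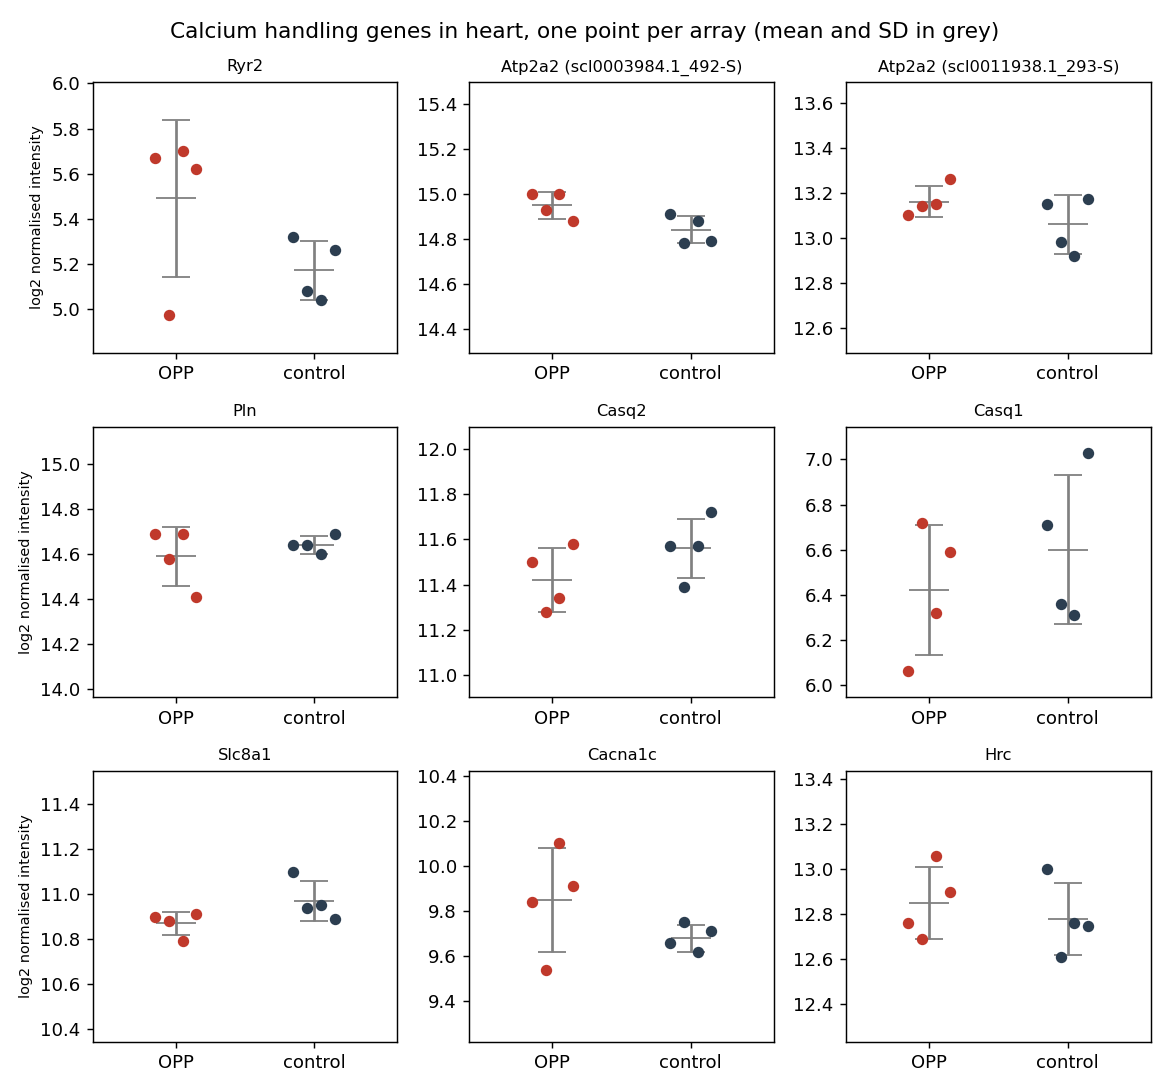
Log2 normalised intensity of the 9 calcium handling probes tested in heart, 1 point per array, OPP left and control right, with the mean and SD in grey (n = 4 each). The groups overlap in all 9 panels, and the Ryr2 panel shows OPP heart 2 (4.97) below the other OPP hearts (5.62 to 5.70).

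Calcium entry is the task of Cacna1c, which encodes the pore of the L-type calcium channel. Its detected probe read 917, 746, 1100 and 965 units in OPP hearts, against 809, 860, 786 and 836 units in control hearts. OPP hearts 1, 3 and 4 lay above every control heart and OPP heart 2 below them all. The change was 0.17 on the log2 scale (SE 0.10, 95% interval -0.06 to 0.39, limma adjusted p = 0.494). Without OPP heart 2 it was 0.27 at an unadjusted limma p of 0.00574 (adjusted p = 0.168), and without OPP hearts 3 and 4, the hearts with the low atrial genes, it was 0.01 (limma adjusted p = 0.993). The other 4 Cacna1c probes were detected on 0 of the 8 heart arrays.

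Ryr2, the cardiac ryanodine receptor through which the store empties, was read by 1 dim probe. It gave 50.8, 31.3, 51.9 and 49.1 units in OPP hearts, against 39.8, 33.8, 32.9 and 38.2 units in control hearts. It counted as detected in 3 OPP hearts and in 0 control hearts, so it entered the test through the OPP group alone. The detection p of the control hearts, 0.0157 to 0.0375, lay just past the limit of 0.01, and that of the 3 detected OPP hearts, 0.00726 to 0.00969, just inside it. The log2 change was 0.31 (SE 0.18, 95% interval -0.07 to 0.70, limma adjusted p = 0.452). OPP heart 2 again lay lowest, and without it the change was 0.48. The 3 OPP hearts then left are those that let the probe enter the test, so no call is read from that value, and without OPP hearts 3 and 4 the probe no longer passed detection. Trdn, which encodes triadin, an anchor between calsequestrin and the release channel, was detected in 0 of the 8 hearts, with 19.5 to 21.7 units in OPP hearts and 20.2 to 21 units in control hearts.

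Calcium storage is carried in heart mainly by Casq2, the cardiac calsequestrin. Casq2 read 2890, 2490, 2590 and 3060 units in OPP hearts, against 3040, 2690, 3040 and 3370 units in control hearts. The lowest arrays were OPP hearts 2 and 3, but OPP heart 4 lay above 3 of the 4 control hearts. The log2 change was -0.14 (SE 0.08, 95% interval -0.33 to 0.05, limma adjusted p = 0.487). Hrc, the histidine-rich calcium-binding protein of the store, read 6910, 6620, 8550 and 7650 units in OPP hearts, against 8180, 6260, 6950 and 6880 units in control hearts. The control hearts held both the lowest array and the second highest one. Its log2 change was 0.07 (SE 0.10, 95% interval -0.14 to 0.28, limma adjusted p = 0.773), and it was -0.06 without OPP hearts 3 and 4 (limma adjusted p = 0.923). Casq1, the calsequestrin best known from skeletal muscle, had 1 detected probe with 66.8 to 106 units in OPP hearts and 79.6 to 131 units in control hearts. Its log2 change was -0.18 (SE 0.19, limma adjusted p = 0.686), and its other probe was detected in 1 OPP heart and 0 control hearts.

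Calcium uptake into the store is the task of Atp2a2, which encodes the pump SERCA2. Its brighter probe (scl0003984.1_492-S) read 32800, 31200, 32800 and 30200 units in OPP hearts, against 30700, 28100, 30200 and 28400 units in control hearts. OPP hearts 1, 2 and 3 lay above every control heart, and only OPP heart 4 fell among them. The log2 change was 0.11 (SE 0.05, 95% interval 0.00 to 0.23), with an unadjusted limma p of 0.0566 and an adjusted p of 0.368, and the exact permutation test gave p = 0.0857. On the authors' normalised values the same probe changed by 0.21 (unadjusted limma p = 0.0111, adjusted p = 0.223). The probe ranked between 3rd and 12th brightest of 23982 on the heart arrays. The other Atp2a2 probe (scl0011938.1_293-S) read 8790, 9010, 9110 and 9780 units in OPP hearts, against 9110, 8060, 7730 and 9240 units in control hearts. It gave the same change of 0.11 (SE 0.07, 95% interval -0.05 to 0.26, limma adjusted p = 0.516) with the groups mixed.

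The inhibitors of the pump differed in whether they were seen at all. Pln, which encodes phospholamban, read 26400, 24500, 26400 and 21700 units in OPP hearts, against 25600, 25600, 24900 and 26400 units in control hearts. OPP hearts 4 and 2 were the lowest arrays, and OPP hearts 1 and 3 were level with the highest control heart. The log2 change was -0.05 (SE 0.07, 95% interval -0.20 to 0.10, limma adjusted p = 0.763), and 0.01 without OPP heart 4. Sln, which encodes sarcolipin and is known in mice as a gene of the atria, was detected in 0 of the 8 hearts, with 20.1 to 27.7 units in OPP hearts and 22.4 to 26.8 units in control hearts. Its probe stayed at background also in the 6 hearts with bright Myl7 and Myl4.

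Calcium extrusion is the task of Slc8a1, which encodes the cardiac sodium-calcium exchanger. It read 1920, 1890, 1770 and 1920 units in OPP hearts, against 2190, 1970, 1980 and 1890 units in control hearts. The OPP hearts were tightly grouped, and only control heart 4 came down to their level. The log2 change was -0.10 (SE 0.06, 95% interval -0.23 to 0.04, limma adjusted p = 0.499; exact permutation p = 0.0857).

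The scaling of the arrays moved the member values. Before normalisation, Casq2, Slc8a1 and Pln each read lower on all OPP arrays than on all control arrays. The median intensity of all probes did so as well, at 59 to 64.9 units in OPP hearts and 68.5 to 73.2 units in control hearts. The share of all probes split in this way before normalisation was not counted, so nothing is read from the split of these genes. Casq2 read 2706.6, 2385.5, 2516.8 and 2726.9 units in OPP hearts, against 3462.4, 2983.2, 3423.1 and 3415.1 units in control hearts. Slc8a1 read 1708.8 to 1830.4 units in OPP hearts and 1975.4 to 2502.5 units in control hearts, and Pln 19908.6 to 25583.1 units in OPP hearts and 26515.4 to 29104.7 units in control hearts. With each array scaled to its median instead of quantile normalised, the median change over all probes was -0.118 on the log2 scale. On that scale, by limma over all probes, Casq2 changed by -0.28 (unadjusted p of 0.00489, limma adjusted p = 0.0616) and Slc8a1 by -0.25 (unadjusted p of 0.00652, limma adjusted p = 0.0712). These were the only 2 member probes past the unadjusted limit there, where 1061 probes in all passed it, 29 higher and 1032 lower, beside 175 higher and 248 lower after quantile normalisation. The second Atp2a2 probe and Hrc were on the other side of 0 under median scaling, at -0.04 and -0.08, and Pln changed by -0.18.

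**Figure D3:**
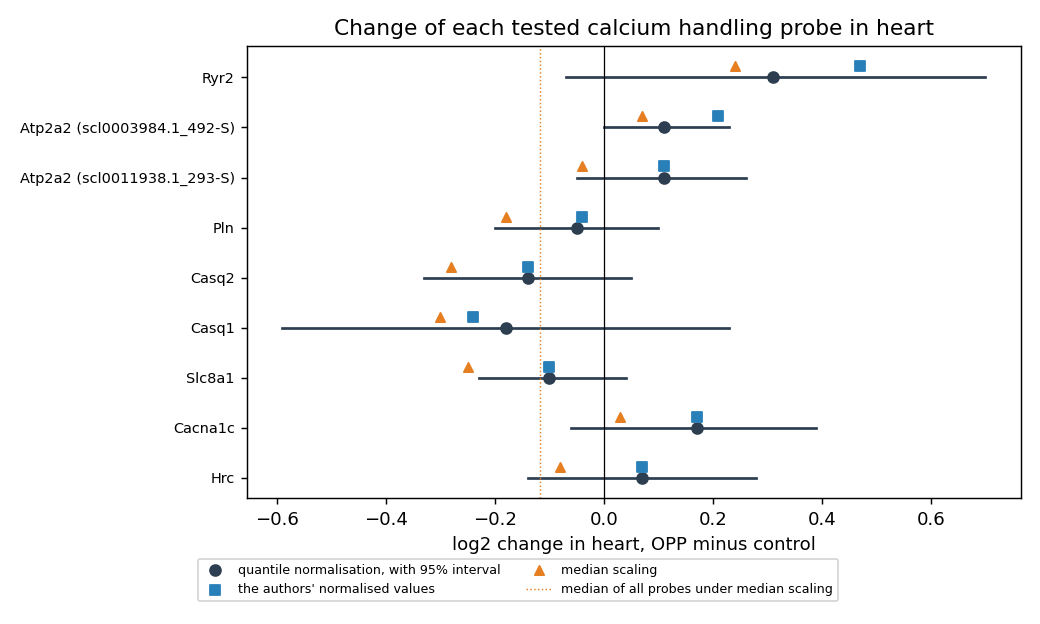
Log2 change in heart, OPP minus control, of each tested probe: circles after quantile normalisation with the 95% interval, squares on the authors' normalised values and triangles under median scaling, with the median of all probes under that scaling (-0.118) as a dotted line. Every interval reaches 0, and each triangle lies left of its circle, as far as -0.28 for Casq2 and -0.30 for Casq1.

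Across the 8 hearts, the deviations of the member probes from their group means were compared as a description. The nearest probes were Htra2 (r = 0.988), Brd3 (r = 0.986) and Cyp4f13 (r = 0.965) for Pln, and Stx8 (r = 0.947), Aimp2 (r = 0.940) and Rev3l (r = 0.933) for the brighter Atp2a2 probe. These are the 3 highest correlations over all probes tested and 8 arrays that share 1 normalisation. The 2 Atp2a2 probes had r = -0.25 with each other, so which hearts were high for this gene depended on the probe. Among the members, Ryr2 and Cacna1c had r = 0.83, the highest of all pairs of tested member probes, which ran down to -0.45. Both were lowest in OPP heart 2, and the Ryr2 probe was dim, so no link between the genes is read from this.

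The level in heart was then set against liver and spleen, in control mice and with all 23 arrays normalised together. Of the 16 probes, 8 probes of 7 genes could be tested against each organ, and 8 were higher in heart in both comparisons. Of these 8, 6 probes against liver and 5 against spleen were detected in 0 control arrays of the other organ. They entered through heart alone, so they had to be higher and their count supports nothing. Against liver the second Atp2a2 probe, detected in 1 of 4 control livers, also entered through heart alone, so its call adds no support. Over all probes tested, 48.2% were higher in heart than in liver and 41.8% higher in heart than in spleen. Where a probe was at background in the other organ, the fold is a lower bound, taken against the lowest signal called detected there.

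Pln had the largest bounds, with 29900 to 31700 units in control hearts, against 31 to 40.9 units in control livers and 32.6 to 46.2 units in control spleens. It was detected in 4 of 4 control hearts and in 0 livers and 0 spleens, at least 279-fold higher in heart than in liver and at least 494-fold higher than in spleen. Hrc was at least 70.5-fold higher than in liver and at least 125-fold higher than in spleen. Casq2 was at least 31.7-fold higher than in liver and at least 56.0-fold higher than in spleen. Cacna1c was at least 8.87-fold higher than in liver and at least 15.7-fold higher than in spleen. Casq1 was close to the floor, at 92.3 to 150 units in control hearts, so it was at least 1.02-fold higher than in liver and at least 1.81-fold higher than in spleen. These 5 genes were detected in 0 of the 15 liver and spleen arrays, OPP arrays included.

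Atp2a2 and Slc8a1 were the members with signal outside the heart. The brighter Atp2a2 probe read 34500 to 40000 units in control hearts, against 536 to 880 units in control livers and 300 to 360 units in control spleens. It was 52.7-fold higher in heart than in liver (log2 5.72, SE 0.18) and 109-fold higher than in spleen (log2 6.77, SE 0.18). The limma adjusted p was 3.22e-18 against liver and 5.92e-19 against spleen. The other Atp2a2 probe was 99.0-fold higher in heart than in spleen. It was detected in 1 of 4 control livers, at 58 to 156 units over the 4, so no fold over liver is given. Its levels in liver and spleen thus overlapped, while those of the brighter probe did not. Slc8a1 was ordered heart, spleen, liver, with 2160 to 2520 units in control hearts, 156 to 226 units in control spleens and 26.1 to 30.4 units in control livers. It was 12.1-fold higher in heart than in spleen (log2 3.6, SE 0.12) and at least 20.9-fold higher than in liver, where it was not detected. Ryr2, Sln and Trdn were detected in 0 control arrays of any organ and were not tested between organs.

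**Figure D4:**
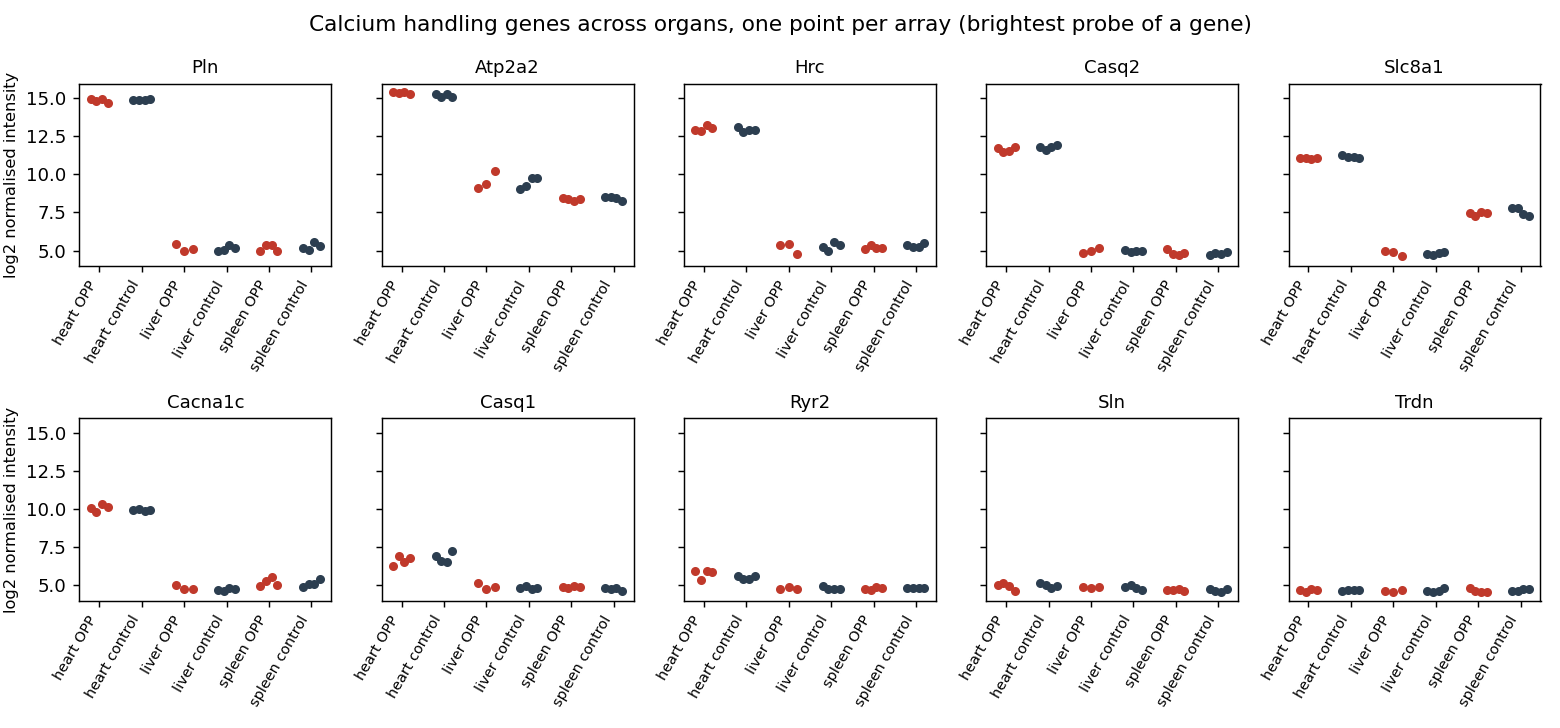
Log2 normalised intensity of the brightest probe of each calcium handling gene on all 23 arrays, by organ and group, with all arrays normalised together. Heart arrays stand apart from liver and spleen for Pln, Atp2a2, Hrc, Casq2, Slc8a1, Cacna1c and Casq1, spleen lies between heart and liver for Slc8a1, and Sln and Trdn stay at background throughout.

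OPP left the members that could be measured in liver and spleen within the spread of the arrays. In liver the 1 probe tested, the brighter Atp2a2 probe, read 608, 726 and 1430 units in OPP livers, against 578, 651, 994 and 1000 units in control livers. OPP liver 3 was the highest array and the other OPP livers lay among the controls (log2 change 0.13, SE 0.32, limma adjusted p = 0.901). The array of OPP liver 3 also had a background of 369.8, against 167.5 and 179.5 in OPP livers 1 and 2 and 156 to 170.9 in control livers. It had 5349 probes detected, against 7069 and 7664 in OPP livers 1 and 2 and 6388 to 6877 in control livers. The part of this in its Atp2a2 value was not tested. Of all 6434 probes tested in liver, 2.92% had an unadjusted p under 0.01. In spleen, 0 of 3 member probes were past that limit, beside 1.69% of 8582 probes. Slc8a1 read 207, 180, 213 and 201 units in OPP spleens, against 260, 254, 191 and 180 units in control spleens (log2 change -0.13, SE 0.14, limma adjusted p = 0.958). The Atp2a2 probes changed by -0.05 (SE 0.09) and -0.10 (SE 0.16) in spleen.

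The response in heart was also tested against the response in the other organs, as a difference of log2 changes. For the brighter Atp2a2 probe the heart response minus the liver response was 0.05 (SE 0.26, limma adjusted p = 0.954). Heart minus spleen was 0.22 (SE 0.25) for that probe, 0.23 (SE 0.28) for the other Atp2a2 probe and 0.03 (SE 0.16) for Slc8a1. None of the 4 differences passed an adjusted p of 0.05, as for all but 0.0716% of the probes tested against liver, with 0 of 7209 probes against spleen.

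Around the members, 96 further genes of calcium signalling were followed in 8 lists, of which 77 genes were on the array and 51 genes (64 probes) were tested in heart. Of the 64 probes, 5 had an unadjusted p under 0.01, which is 7.81% beside 4.61% of all probes, and 0 had an adjusted p under 0.05. The 5 were 1 gene higher in OPP hearts, Calr3, and 4 genes lower, Calm2, Vdac3, Prkar2a and Ppp1cc, beside 1.91% of all probes higher and 2.7% lower, with adjusted p from 0.118 to 0.192. The median change over the 51 genes, at the brightest tested probe of each, was 0.00 on the log2 scale. With OPP hearts 3 and 4 left out, so with 2 OPP hearts in the fit, only the Calr3 probe of these 5 remained past the unadjusted limit. The log2 changes were then 0.37 for Calr3, -0.26 for Calm2, -0.40 for Vdac3, -0.38 for Prkar2a and -0.21 for Ppp1cc, each in the same direction as with all hearts.

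Among calcium-binding proteins of the reticulum (6 of 10 listed genes tested, 1 higher and 0 lower), Calr3 encodes a calreticulin best known from testis. Its called probe read 374, 357, 380 and 387 units in OPP hearts, against 308, 273, 274 and 274 units in control hearts. All OPP hearts lay above all control hearts (log2 change 0.41, SE 0.07). The other detected Calr3 probe, which was brighter, changed by 0.22 with overlapping groups (limma adjusted p = 0.335). The remaining Calr3 probes were detected in 0 hearts. Among the partners of the release channel (8 of 14 genes tested, 0 higher and 1 lower), Calm2, 1 of the genes that encode calmodulin, read 1180, 1150, 963 and 986 units in OPP hearts, against 1340, 1460, 1290 and 1490 units in control hearts. Every OPP heart was below every control heart (log2 change -0.39, SE 0.08). Calm3, which encodes the same protein, changed by 0.08 (limma adjusted p = 0.651).

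In the list of mitochondrial uptake (6 of 10 genes tested, 0 higher and 1 lower), Vdac3, a channel of the outer membrane, read 1440, 1160, 1210 and 1150 units in OPP hearts, against 1590, 1520, 1770 and 1990 units in control hearts. The groups did not overlap (log2 change -0.46, SE 0.10), while Vdac1 and Vdac2 changed by -0.02 and -0.04. In the list of beta adrenergic and kinase control (10 of 16 genes tested, 0 higher and 1 lower), Prkar2a, a regulatory subunit of protein kinase A, read 737, 544, 606 and 657 units in OPP hearts, against 793, 770, 859 and 888 units in control hearts. Every OPP heart was again below every control heart (log2 change -0.39, SE 0.09). In the list of phosphatases and calcineurin (9 of 11 genes tested, 0 higher and 1 lower), Ppp1cc, a catalytic subunit of protein phosphatase 1, read 673, 540, 550 and 580 units in OPP hearts, against 714, 684, 684 and 710 units in control hearts (log2 change -0.26, SE 0.08, no overlap).

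The other 3 lists held 0 called genes. Of the channel subunits (3 of 11 genes tested), Cacna2d2 changed by -0.30 (limma adjusted p = 0.466) and Cacna2d1 by 0.15 (limma adjusted p = 0.560). Of the other pumps and exchangers (5 of 13 genes tested), Slc24a3 changed by -0.24 and the first Atp2c1 probe by -0.14, with limma adjusted p of 0.503 and 0.717. Of the IP3 receptor and store-operated entry genes (4 of 11 tested), Orai1 changed by 0.18 without overlap of the groups (limma adjusted p = 0.387) and Stim1 by 0.16 (limma adjusted p = 0.548). Atp2a1, the pump of fast skeletal muscle, was detected in 4 of 8 hearts, in too few of either group to be tested.

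**Figure D5:**
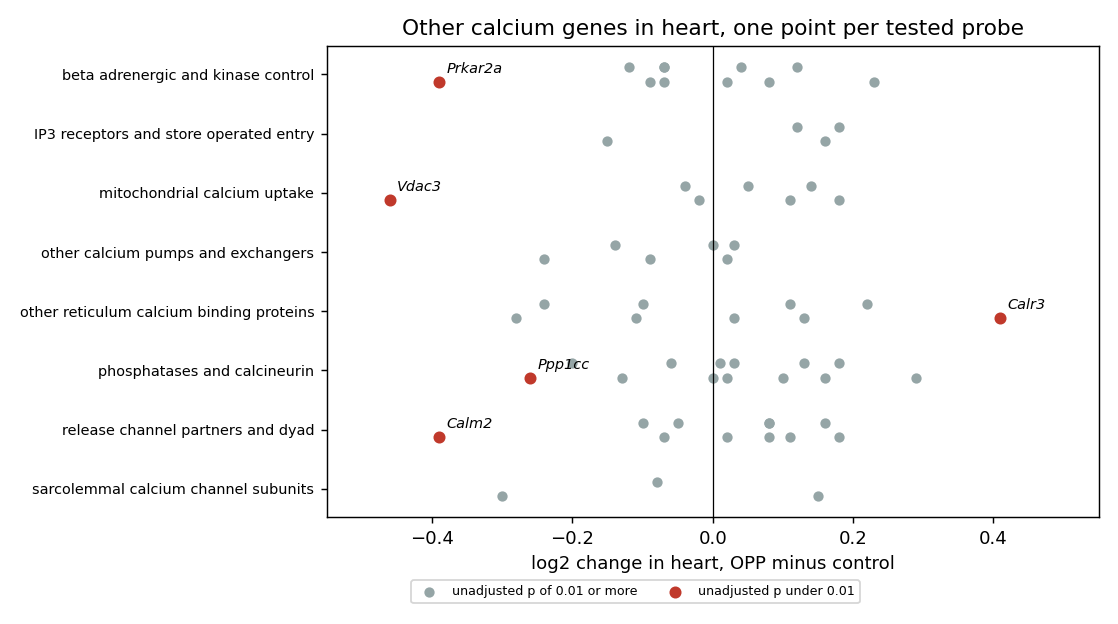
Log2 change in heart, OPP minus control, of the 64 tested probes of other calcium genes, by list, with the 5 probes at an unadjusted p under 0.01 named in red. Calr3 lies at 0.41, and Vdac3, Calm2, Prkar2a and Ppp1cc at -0.46, -0.39, -0.39 and -0.26, with the other probes between -0.30 and 0.29.

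Markers of other cell types also differed between the hearts, and their part in the calcium gene values was not tested. The summed level of the 6 cardiomyocyte genes, at the brightest probe of each, was 125000 to 127000 units in OPP hearts and 117000 to 118000 units in control hearts. Of their 7 probes, that of Myh6, the main myosin heavy chain of the adult mouse heart, was higher (log2 change 0.25) and 1 of the 2 probes of Actc1, cardiac actin, was lower (-0.31) at an unadjusted p under 0.01. The other Actc1 probe changed by 0.04, so the gene's probes disagreed.

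The 3 atrial genes on the array summed to 7450 to 28800 units in OPP hearts and 25300 to 29200 units in control hearts, with Bmp10 detected in 1 heart. The 4 endothelial genes summed to 1590 to 2080 units in OPP hearts and 1420 to 1550 units in control hearts, with Kdr detected in 0. The 4 hepatocyte genes summed to 295 to 329 units in OPP hearts and 336 to 698 units in control hearts. Of these genes, Alb was detected in 0 hearts and Serpina1a did not pass the detection filter either. The cardiomyocyte, endothelial and hepatocyte sums each did not overlap between the groups, and how often such sums split over all genes was not counted. The 5 fibroblast genes had 8 tested probes, and 0 of these genes had an unadjusted limma p under 0.01. Their median log2 change, at the brightest probe of each gene, was 0.01. Among their probes, Col3a1 changed by -0.58 and Col1a2 by -0.65 (limma adjusted p = 0.237 and 0.268). The sum of the 5 genes was 13800 to 15700 units in OPP hearts and 13800 to 16600 units in control hearts.

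The T cell genes Cd3e and Cd3g read 23.6 to 52.9 and 25.1 to 48.1 units in OPP hearts, while control heart 2 stood apart from all other hearts with 409 units of Cd3e and 459 units of Cd3g. Without control heart 2, 0 member probes had an unadjusted p under 0.01. Of the 6 skeletal muscle genes on the array, Acta1 was detected in 8 hearts, Myl1 in 7, Atp2a1 in 4, Tnni2 in 3, Mylpf in 1 and Tnnt3 in 0. The 6 summed to 21500 to 28600 units in OPP hearts and 25400 to 27000 units in control hearts.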

How the data were processed

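RNA was hybridised to Illumina MouseRef-8 BeadChips, and per the labels BeadStudio 1.5.1.3 gave the summaries. The deposited table held intensity and a detection p-value per probe, not normalised. The deposited values normalised by the authors (intensity after rank invariant normalisation, here floored at 10) served as an alternative. Intensities were corrected with nec (limma 3.58.1, R 4.3.3, offset 16), quantile normalised within an organ (across organs, over all arrays) and taken to log2. Probes detected (p below 0.01) in 3 or more arrays of either group were tested with lmFit and eBayes (trend) and Benjamini-Hochberg adjustment. The unadjusted 0.01 that the methods used was set beside it. The methods took that limit from the Illumina custom error model, which was not run here. The scripts were tested on simulated data. For a probe at background in 1 organ, the fold was taken against the higher of its own signal and the lowest detected signal. The number of arrays limits the precision, and the p-values measure the spread between arrays. The labels do not say that replicate numbers pair the samples. Genes came from the platform annotation, where 19398 probes have 1 symbol and 4650 none. The text names every member probe, and from each calcium list the genes at an unadjusted p under 0.01 or else the 2 with the smallest p. The members and lists were chosen with earlier results of these data known. The alternatives were other scaling, filters, tests, the block and leaving out arrays.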

Additional observations from a re-analysis of the deposited data

Results flagged for a closer look

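Of 25 groups of 4 arrays examined over the member probes tested, 1 held an array far from the other 3. Ryr2 in OPP heart 2 stood at 4.97 on the log2 scale, with the other OPP hearts at 5.62 to 5.70, a gap of 0.89 of the group's range, past the Dixon limit for 4 values. Chance alone flags about 1 group in 20. Ryr2, however, had entered the test only through the other 3 OPP hearts, so its flag cannot be read against that rate. OPP heart 2 was also the lowest OPP heart for Cacna1c, Hrc and Casq2 and the highest for Casq1.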

How the results depend on the processing

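Over all alternatives run, 0 member probes had an adjusted p under 0.05 in any organ. The probes detected in both organs stayed higher in heart: the brighter Atp2a2 probe against liver and spleen, and the other Atp2a2 probe and Slc8a1 against spleen. The count of member probes at an unadjusted p under 0.01 in heart was 0, but 2 under median scaling and 0 to 2 with 1 array left out (2 without OPP heart 2, of which Ryr2 had entered only through the OPP hearts left in). Over all heart probes that count was 423, against 1061 under median scaling, 234 with all organs in 1 fit, 122 without OPP hearts 3 and 4 (added after seeing the data) and 225 to 497 with 1 array left out, the lowest values being 225 without control heart 4 and 255 without OPP heart 3. The heart count at an adjusted p under 0.05 was 0, against 554 under median scaling, 17 with all organs in 1 fit, 1 with no filter, 1 with detection on every array of a group and 0 to 1 with 1 array left out. The median change of all heart probes was 0.004, and -0.118 under median scaling. The 5 calls among other calcium genes became 8 under median scaling, 3 under an unpaired t-test and 1 with all organs in 1 fit. They became 1 without OPP hearts 3 and 4 and 4 to 7 with 1 array left out. Under median scaling Calm2 (-0.53), Vdac3 (-0.60), Prkar2a (-0.52) and Ppp1cc (-0.38) passed an adjusted p of 0.05 by limma. Signs turned for the second Atp2a2 probe (-0.04) and Hrc (-0.08) under median scaling, for Hrc (-0.06) without OPP hearts 3 and 4 and for Pln (-0.09 to 0.01 with 1 array left out). In liver the count of 188 probes became 25 under median scaling, 105 with the replicate block and 69 to 211 with 1 array left out (69 without OPP liver 2, 105 without control liver 4 and 113 without control liver 1), and the Atp2a2 change ran from -0.24 to 0.38. In spleen the count of 145 ran from 71 without OPP spleen 2 to 304 without control spleen 3, the adjusted count of 0 was 15 under median scaling and 0 to 15 with 1 array left out, and the Atp2a2 change was 0.01 under median scaling. The cause of these shifts was not tested.

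With the replicate number as a block, the heart count was 443 and the spleen count 157, and no member call changed. Deviations of same-numbered arrays correlated at 0.012 to 0.455 in heart, 4 of 8 hearts correlated best with their own number in the other group, and the labels state no pairing, so the numbers were not used as pairs. An unpaired t-test gave 314 heart probes under 0.01 and 0 after Benjamini-Hochberg. Signal over background limits Ryr2 and Casq1, which lie near the floor, and Sln and Trdn, which lie on it.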

Other observations

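Atp2a2 and Pln encode the pump and its inhibitor, and their balance within each heart was looked at after the values had been seen. The brighter Atp2a2 probe minus the Pln probe was 0.31, 0.35, 0.31 and 0.47 on the log2 scale in OPP hearts, against 0.27, 0.14, 0.28 and 0.10 in control hearts, so the groups did not overlap. The mean was 0.36 ± 0.08 in OPP hearts and 0.20 ± 0.09 in control hearts (SD, n = 4 each), and it was 0.41 ± 0.09 in OPP hearts and 0.16 ± 0.09 in control hearts without quantile normalisation (added after seeing the data). Raw intensities, the authors' values and median scaling share that value, since a scaling of a whole array cancels in such a difference, so they add no separate support. With the other Atp2a2 probe the groups overlapped, at -1.59 to -1.15 in OPP hearts and -1.68 to -1.49 in control hearts. Levels of different probes are not comparable, so only the difference between groups can be read, and no test was made of a pair picked in this way.

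Sln and Trdn are known as genes of heart muscle, yet their probes were at background in all 8 hearts, as were 4 of the 5 Cacna1c probes. Whether those probes report their transcripts was not tested.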
